A study of Danio rerio with 24 samples.

Results

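BTG2 (ENSDARG00000020298), BTG1 (ENSDARG00000027249), cdkn1a (ENSDARG00000076554), LMNB1 (ENSDARG00000044299) and mcl1a (ENSDARG00000009779) are 5 genes of growth arrest and cell survival, measured here in zebrafish liver. They are 5 of the 32105 gene rows of the count data, were picked by identifier, and were picked for their differences between dose or age groups in these same fish. Differences by dose and by age are therefore given for the 5 genes as descriptions, with no p-value, and tests are kept for the fish number series, for interactions with it and for the relations among the genes.

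BTG1 and BTG2 belong to the BTG/TOB family of antiproliferative proteins, which bind the deadenylase subunits of the CCR4-NOT complex and so speed the removal of poly(A) tails from messenger RNA. The product of cdkn1a, p21, inhibits cyclin-dependent kinases and stops cells before S phase; in mammals both cdkn1a and BTG2 are transcribed under p53. LMNB1 encodes lamin B1 of the nuclear lamina, whose loss is a marker of senescent cells in mammals, and mcl1a is one of the zebrafish counterparts of MCL1, a short-lived member of the BCL2 family that keeps cells from apoptosis and that hepatocytes need in the mouse.

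RNA was sequenced from whole livers of 24 male zebrafish, 1 library per fish, and every fish is labelled with rotenone, an inhibitor of mitochondrial complex I. Fish aged 3 years had 37.5 nM (n = 6), and fish aged 1 year had either 37.5 nM (n = 9) or 3.75 nM (n = 9). The 1-year fish were of strain AB JxTu and the 3-year fish were AB JxTu Tg(flk:mCherry), in which the flk promoter drives a red reporter, so age and transgene cannot be told apart. No fish is labelled as untreated, so levels without rotenone are not analysed here. How long the exposure lasted is not in the labels.

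Each title carries a fish number, and the numbers form an upper series, 189 to 202, and a lower series, 163 to 181. The labels do not say what separates them. The upper series held 4, 5 and 5 fish of the groups in the order above, and the lower series held 2, 4 and 4. The counts came in 2 tables, one for each rotenone dose, so dose and anything that separates those tables cannot be told apart. Total counts per library ran from 24644663 to 45297644. Hepatocyte markers summed to 94900 to 301000 CPM in every library. Summed enterocyte (intestinal absorptive cell) markers exceeded 10000 CPM in 4 libraries, 1-year fish 198 and 200 at 37.5 nM and fish 166 and 190 at 3.75 nM, against 810 to 6710 CPM in the other 20, and results are also given without those 4. CPM, counts scaled to library size, was taken after TMM scaling, a correction for library composition.

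**Figure D1:**
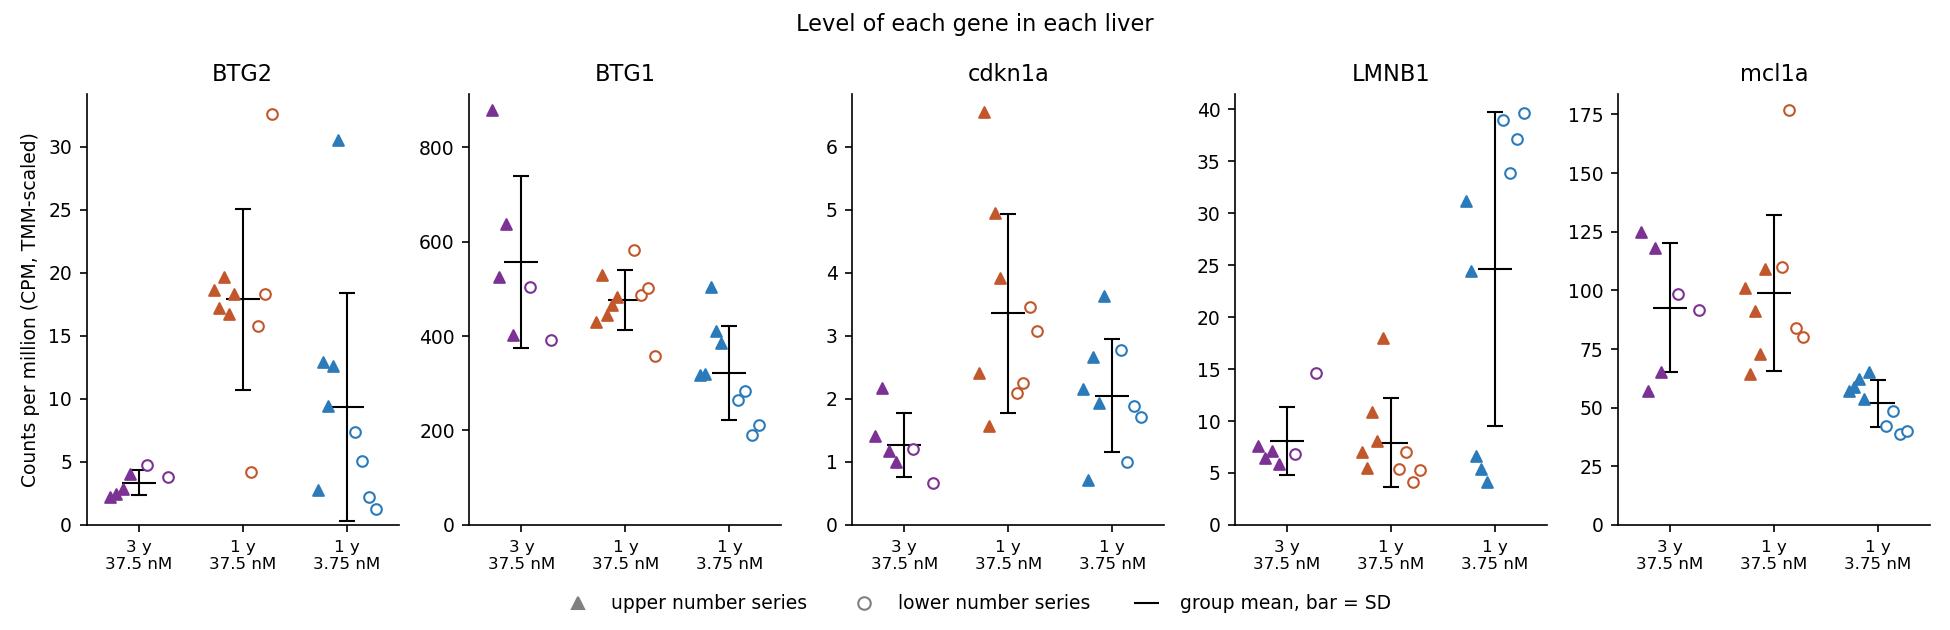
Level of each gene in each liver in TMM-scaled CPM (y axis, linear from 0), by group (x axis); triangles are fish of the upper and open circles fish of the lower number series, and black bars are the group mean ± SD (n = 6, 9 and 9). By group mean BTG2 and cdkn1a are lowest in the 3-year fish, and mcl1a and BTG1 in the 1-year fish at 3.75 nM. The single lowest BTG2 liver, at 1.25 CPM, is from a 1-year fish at 3.75 nM. LMNB1 splits the 3.75 nM fish into high and low livers.

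BTG2 was low in every 3-year liver. It ran from 2.21 to 4.74 CPM in 3-year fish, with a median of 3.31, against 4.21 to 32.6 CPM in 1-year fish at 37.5 nM, with a median of 18.3. All but 1 of the 6 older fish lay below all 9 younger fish, and the exception overlapped with a single 1-year fish, number 173, at 4.21 CPM. In the upper series the groups did not overlap: 2.21, 2.48, 2.85 and 4.01 CPM in 3-year fish, against 16.7, 17.2, 18.3, 18.6 and 19.7 CPM in 1-year fish at 37.5 nM. The spread there was small, with an SD of 1.19 CPM around 18.1 CPM in the 1-year fish (n = 5). In the lower series the 3-year fish had 4.74 and 3.77 CPM, against 4.21, 15.8, 18.3 and 32.6 CPM in the 1-year fish.

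The age difference of BTG2 was -2.45 ± 0.33 on the log2 scale (± SE, edgeR fit, 3 years minus 1 year), -2.67 ± 0.19 within the upper series and -2.10 ± 0.75 within the lower. Between doses BTG2 was more scattered, at 4.21 to 32.6 CPM in 1-year fish at 37.5 nM (mean 17.9 ± 7.18, SD, n = 9), against 1.25 to 30.5 CPM at 3.75 nM (mean 9.35 ± 9.02, n = 9). The 4 lower-series fish at 3.75 nM had 7.40, 5.08, 2.23 and 1.25 CPM, and the 5 upper-series fish had 2.75, 12.9, 9.42, 12.6 and 30.5 CPM. The log2 difference by dose was 0.95 ± 0.49 with edgeR and 1.76 with limma voom, and edgeR gave 0.44 ± 0.48 within the upper series and 2.27 ± 0.68 within the lower. By mean over both series, BTG2 stood highest in 1-year fish at 37.5 nM, then 1-year fish at 3.75 nM, then 3-year fish. Within the lower series the mean was 3.99 CPM in 1-year fish at 3.75 nM and 4.26 CPM in 3-year fish, the reverse order. The ranges of all 3 groups overlapped.

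In whole liver, fewer cells that express a gene and less of its RNA per cell cannot be told apart, here or for any gene below. T cell and NK cell markers, summed over their list, ran from 15.1 to 88.0 CPM in 3-year fish. In 1-year fish at 37.5 nM they ran from 6.87 to 44.8 CPM, and by age 12 of 16 were positive (median log2 0.88). Exocrine pancreas markers were negative by age in 20 of 21, enterocyte markers in 18 of 20 and endocrine pancreas markers in 7 of 8. Their medians were -0.94, -2.86 and -1.76. The part of any of these markers in the age differences was not tested. Leaving out fish 198 and 200, the libraries of this comparison with high enterocyte markers, gave a BTG2 age difference of -2.42 ± 0.35.

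Of the other genes of the BTG/TOB family and the CCR4-NOT deadenylase, 26 were tested in the age comparison and none passed the threshold of an adjusted p of 0.05 (edgeR quasi-likelihood test, Benjamini-Hochberg over all genes), with a median log2 difference of 0.02 against -0.00 for all 16159 genes tested. Among the paralogs, tob1b had 231 CPM in 3-year fish and 413 CPM in 1-year fish at 37.5 nM (log2 difference -0.86 ± 0.26, adjusted p = 0.0912 with edgeR). TOB1 stood at 0.01 ± 0.25 and btg3 at 0.07 ± 0.21 in the same comparison. Of all genes 1.72% passed by age, so a count of 0 among 26 does not set the list apart. By dose 1 of 26 genes of the list rose and 1 fell, where 11.4% of all genes passed. These counts do not set the list apart either. PRMT1, an arginine methyltransferase that binds BTG proteins in mammals, fell to 28.0 CPM at 37.5 nM, against 87.9 CPM at 3.75 nM (log2 -1.59 ± 0.28, adjusted p = 0.00663, edgeR). TNRC6A, which joins microRNA complexes to the deadenylase, rose by 0.42 ± 0.12 (adjusted p = 0.0278, edgeR) and passed in 13 of the 18 fits with a fish left out. PRMT1 passed in all 18 and without the enterocyte-high libraries (-1.43, adjusted p = 0.0464), where TNRC6A did not pass (0.33, adjusted p = 0.144). Without those libraries 1.18% of all genes passed by dose.

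cdkn1a was the least counted of the 5 genes, with 22 to 223 reads per library. It ran from 0.659 to 2.18 CPM in 3-year fish (median 1.19), against 1.57 to 6.55 CPM in 1-year fish at 37.5 nM (median 3.07), and 5 of the 6 older fish lay below all 9 younger ones. The remaining older fish, number 195, had 2.18 CPM, above 1-year fish 173 and 200 with 2.1 and 1.57 CPM. The age difference was -1.42 ± 0.33 on the log2 scale. It was -1.44 ± 0.43 within the upper series and -1.60 ± 0.37 within the lower, values that lay within 1 SE of each other.

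By dose the cdkn1a ranges overlapped, with 1.57 to 6.55 CPM in 1-year fish at 37.5 nM and 0.719 to 3.63 CPM in 1-year fish at 3.75 nM (medians 3.07 and 1.94). The log2 difference was 0.75 ± 0.30, with 0.83 ± 0.46 within the upper and 0.68 ± 0.30 within the lower series. The 3 highest livers, fish 199, 201 and 202 with 6.55, 4.95 and 3.92 CPM, were all upper-series 1-year fish at 37.5 nM. In order of mean level the groups ran from 3.36 ± 1.58 CPM in 1-year fish at 37.5 nM through 2.05 ± 0.896 CPM at 3.75 nM to 1.27 ± 0.513 CPM in 3-year fish, and each neighbouring pair overlapped.

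Targets and regulators of p53, other than cdkn1a and BTG2, mostly did not pass the test with age, where 1.72% of all genes did. Of 37 tested, sesn2 fell, to 1.52 CPM in 3-year fish against 3.01 CPM in 1-year fish (log2 -1.01 ± 0.17, adjusted p = 0.00784, edgeR), and passed in all 15 fits with a fish left out. The median of the list was -0.22. sesn2 encodes sestrin 2, a stress protein that restrains mTORC1. TP53INP1, a p53 cofactor induced by p53, had 93.4 CPM in 3-year fish and 180 CPM in 1-year fish (-0.98 ± 0.27, adjusted p = 0.0711). By dose, where 11.4% of all genes passed, 1 of 35 changed. It was tigara, a fructose bisphosphatase of the p53 response, which fell by 0.56 ± 0.14 (adjusted p = 0.0189, edgeR). It stood at -0.57 without the enterocyte-high libraries (adjusted p = 0.0826), where 1.18% of all genes passed.

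The other CDK inhibitors, G1 cyclins and pocket proteins did not pass in either comparison, with 0 of 22 by dose and 0 of 23 by age (edgeR). Over all genes 11.4% passed by dose and 1.72% by age, so the count by age does not set the list apart. Neither gene row named CDKN1B, which encode p27, passed: they stood at 0.08 ± 0.21 (ENSDARG00000029018) and 0.31 ± 0.37 (ENSDARG00000054271) by dose, and -0.54 ± 0.23 and -0.21 ± 0.22 by age. The lowest adjusted p of this list was 0.0770 by dose, for CDKN3 (-0.70 ± 0.25), and 0.158 by age, for e2f6 (0.40 ± 0.15).

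BTG1 stood lowest in the 1-year fish at 3.75 nM. It ran from 358 to 582 CPM in 1-year fish at 37.5 nM (median 483), against 191 to 504 CPM at 3.75 nM (median 318). The lower series separated completely, with 582, 487, 502 and 358 CPM in fish at 37.5 nM and 264, 283, 191 and 212 CPM in fish at 3.75 nM. The upper series overlapped, with 430, 530, 445, 465 and 483 CPM at 37.5 nM and 318, 320, 504, 411 and 385 CPM at 3.75 nM. The log2 difference by dose was 0.60 ± 0.18 over all fish, 0.31 ± 0.17 within the upper series and 1.14 ± 0.20 within the lower. In the lower series alone 34.8% of all genes passed by dose, and in the upper alone 0%. Erythrocyte markers differed by dose as well, with 5 of 15 higher and 1 lower and sums of 195 to 742 CPM at 37.5 nM and 190 to 287 CPM at 3.75 nM (medians 316 and 217). Macrophage markers summed to 244 to 1700 CPM and 226 to 1020 CPM, with 19 of 19 genes positive and none past the threshold. Exocrine pancreas markers were negative in 20 of 21 and endocrine pancreas markers in 8 of 8 (medians -0.71 and -1.67), none past the threshold. Of 19 enterocyte markers 3 were lower past the threshold, while 11 were positive and the median was 0.36. Of all genes 3.19% were higher by dose and 8.19% lower. The part of any of these markers in the dose differences of the 5 genes was not tested.

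The age groups differed in BTG1 by less than the spread between 3-year fish. It averaged 556 ± 182 CPM in 3-year fish (n = 6) and 476 ± 63.4 CPM in 1-year fish at 37.5 nM (SD, n = 9), a log2 difference of 0.21 ± 0.17. The highest liver of the study was 3-year fish 194 at 879 CPM, and without it the log2 difference was 0.002. The groups thus ran from 3-year fish through 1-year fish at 37.5 nM to 1-year fish at 3.75 nM, with overlap between each neighbouring pair.

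mcl1a was higher in nearly all 1-year fish at 37.5 nM than in any at 3.75 nM. It ran from 64.4 to 177 CPM in 1-year fish at 37.5 nM (median 91.3), against 38.7 to 65.3 CPM in 1-year fish at 3.75 nM (median 53.5), and 8 of the 9 fish at 37.5 nM lay above all 9 at 3.75 nM. The exception, fish 199 at 64.4 CPM, lay below only fish 193 at 65.3 CPM. Within the lower series the values were 110, 177, 84.0 and 80.2 CPM at 37.5 nM and 42.0, 48.5, 38.7 and 40.1 CPM at 3.75 nM, with no overlap. Within the upper series they were 101, 64.4, 91.3, 72.7 and 109 CPM at 37.5 nM and 57.3, 58.9, 62.2, 53.5 and 65.3 CPM at 3.75 nM. The log2 difference was 0.96 ± 0.19 over all fish, 0.60 ± 0.17 within the upper series and 1.53 ± 0.27 within the lower. In the lower series alone 34.8% of all genes passed by dose, and in the upper alone 0%.

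Age groups of mcl1a did not separate, with 57.2 to 125 CPM in 3-year fish and 64.4 to 177 CPM in 1-year fish at 37.5 nM (log2 difference -0.12 ± 0.23). The paralog mcl1b (ENSDARG00000008363) averaged 143 CPM in 1-year fish at 37.5 nM and 173 CPM at 3.75 nM, a log2 difference of -0.27 ± 0.47 (adjusted p = 0.746, edgeR). The difference between the paralogs was not tested.

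Over all genes 11.4% passed by dose and 1.72% by age. No other gene of the BCL2 family or of MCL1 turnover passed by dose (0 of 22) or by age (0 of 22), with medians of 0.07 and -0.25. The nearest were BOK, a pro-apoptotic member, at -0.77 ± 0.27 by dose (adjusted p = 0.0661), and FBXO10, a ubiquitin ligase subunit that targets BCL2 in mammals, at 0.79 ± 0.22 by age (adjusted p = 0.0738), both from edgeR. In a list of 23 caspases, inhibitors of apoptosis and genes that act with them, 3 changed by dose. Of all genes 11.4% did, so the count does not set the list apart. None of the 3 is itself a caspase or an inhibitor of apoptosis. cycsb, one of the zebrafish cytochrome c genes, fell to 74.7 CPM at 37.5 nM, against 240 CPM at 3.75 nM (-1.59 ± 0.38, adjusted p = 0.0147, edgeR). ENDOG, a mitochondrial nuclease, fell by 1.02 ± 0.25, and DFFB, the caspase-activated nuclease, rose by 0.57 ± 0.16 and passed in 13 of 18 fits with a fish left out. The differences were -1.64, -1.0 and 0.59 without the enterocyte-high libraries, and none passed (adjusted p = 0.0592, 0.0771 and 0.0887). In that fit 1.18% of all genes passed by dose, against 11.4% with all fish.

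LMNB1 split the fish at 3.75 nM into high and low livers. It ran from 4.09 to 18 CPM in 1-year fish at 37.5 nM (median 7.0), against 4.14 to 39.6 CPM in 1-year fish at 3.75 nM (median 31.2). The lower-series fish at 3.75 nM had 39.0, 33.9, 37.1 and 39.6 CPM, all above the 5.41, 7.06, 4.09 and 5.29 CPM of lower-series fish at 37.5 nM. The upper-series fish at 3.75 nM split into 2 levels, with 31.2 and 24.4 CPM in fish 189 and 190 and 6.61, 5.35 and 4.14 CPM in fish 191, 192 and 193. The levels of these 3 lay within or below the 7.0, 5.46, 10.9, 8.12 and 18 CPM of upper-series fish at 37.5 nM.

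The log2 difference of LMNB1 by dose was -1.57 ± 0.43 over all fish, -0.48 ± 0.59 within the upper series and -2.66 ± 0.18 within the lower. In the lower series alone 34.8% of all genes passed by dose, and in the upper alone 0%. By age it averaged 8.09 ± 3.27 CPM in 3-year fish and 7.93 ± 4.28 CPM in 1-year fish at 37.5 nM (SD, n = 6 and 9), with a log2 difference of -0.001 ± 0.31. Within series the age difference had opposite signs, at -0.58 ± 0.32 in the upper and 0.94 ± 0.36 in the lower, where the 2 older fish had 6.85 and 14.6 CPM. The fish at 37.5 nM of either age thus lay together, and 1-year fish at 3.75 nM had the highest mean with the widest range.

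Genes of S phase and mitosis stood high in many of the same livers. Their summed level was 324 to 721 CPM in the 4 lower-series fish at 3.75 nM, 283 and 689 CPM in fish 189 and 190, and 173 to 194 CPM in fish 191 to 193. Fish 202, the highest for LMNB1 among the 1-year fish at 37.5 nM, had 487 CPM, and fish 181, the highest among the 3-year fish, had 460 CPM. The other 13 fish at 37.5 nM had 142 to 250 CPM. B cell markers moved with the same split in part, at 290 to 423 CPM in the lower-series fish at 3.75 nM and 209 CPM in fish 189, against 72.8 to 181 CPM in the others. Endocrine pancreas markers were at 102 to 682 CPM in those 4 lower-series fish and at 1.56 to 403 CPM in all others, and exocrine pancreas markers at 3040 to 18100 CPM and 64.4 to 22800 CPM. Neutrophil markers were at 203, 79.0, 648 and 525 CPM in the lower-series fish at 3.75 nM, at 91.5 and 208 CPM in fish 189 and 190, and at 56.1 to 222 CPM in all others. The part of these markers in the LMNB1 values was not tested.

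**Figure D2:**
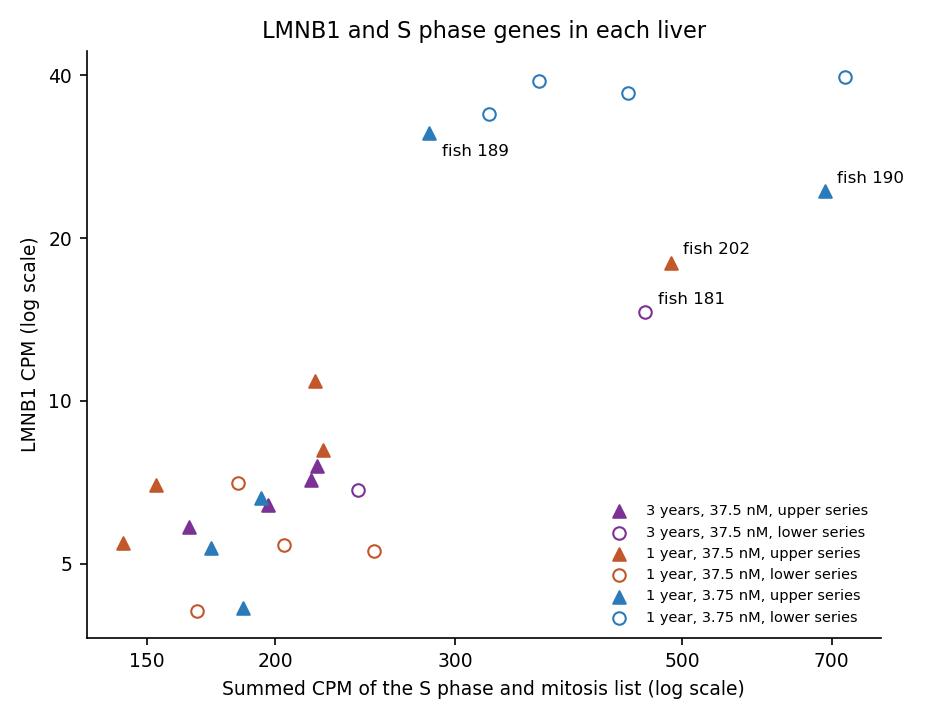
LMNB1 level (y axis, CPM, log scale) against the summed level of the S phase and mitosis list (x axis, CPM, log scale) in each of the 24 livers, coloured by group, with triangles for the upper and open circles for the lower number series. The 6 livers above 20 CPM of LMNB1 are all from 1-year fish at 3.75 nM and have summed levels of 283 to 721 CPM, and fish 181 and 202 come next.

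Of 36 tested genes of S phase and mitosis, 3 fell by dose and none rose, where 8.19% of all genes fell, a share near that of the list. The count ran from 1 to 6 with 1 fish left out. MCM5 of the replicative helicase fell to 2.91 CPM at 37.5 nM, against 8.60 CPM at 3.75 nM (-1.50 ± 0.33, adjusted p = 0.0100, edgeR), and passed in all 18 fits with a fish left out. MCM2 of the same helicase (-2.43 ± 0.76) and the alpha tubulin tuba8l4 (-0.83 ± 0.27) passed in 5 and 6 of the 18. The list had a median of -0.32, against 0.03 for all 15465 genes tested. Without the enterocyte-high libraries MCM5 stood at -1.35 (adjusted p = 0.0718), and 1.18% of all genes passed.

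Other genes of the lamina and nuclear envelope changed in both directions by dose, with 3 of 22 higher and 4 lower and a median of -0.03. Of all genes 3.19% were higher by dose and 8.19% lower. LMNB2, the other B-type lamin, fell to 6.41 CPM at 37.5 nM, against 12.2 CPM at 3.75 nM (-0.87 ± 0.27, adjusted p = 0.0466, edgeR), but passed in only 5 of 18 fits with a fish left out. BANF1 (-0.81 ± 0.23) and emd (-0.71 ± 0.19), which link chromatin to the envelope, and FNTA (-0.72 ± 0.19), a subunit of the enzyme that farnesylates lamins, also fell, and passed in 9, 16 and 14 of the 18. SUN1 of the inner nuclear membrane rose by 0.52 ± 0.13 (adjusted p = 0.0212) and passed in all 18. syne3 (0.80 ± 0.23) and NRM (0.93 ± 0.29), which encode nesprin 3 and nurim of the nuclear envelope, rose, and passed in 13 and 3 of the 18. The A-type lamin LMNA stood at -0.46 ± 0.26 (adjusted p = 0.268). Without the enterocyte-high libraries the differences were -0.73 for LMNB2, -0.69 for BANF1, -0.59 for emd, -0.63 for FNTA, 0.54 for SUN1, 0.81 for syne3 and 0.76 for NRM, none past the threshold (adjusted p from 0.0643 to 0.153). In that fit 1.18% of all genes passed by dose, against 11.4% with all fish. By age, where 1.72% of all genes passed, 1 of 22 changed. It was NRM, which fell to 4.66 CPM in 3-year fish, against 7.92 CPM in 1-year fish (-0.79 ± 0.15, adjusted p = 0.0148, edgeR).

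Counted together, 3 of the 5 genes (BTG1, LMNB1 and mcl1a) were past the threshold by dose, where 11.4% of all tested genes were (3.19% higher and 8.19% lower), and 2 of the 5 (BTG2 and cdkn1a) by age, where 1.72% were (0.897% higher and 0.823% lower). Genes higher were 52.2% of the calls by age, and 65.8% with upper-quartile factors. As the genes were picked on these contrasts, nothing is read from these counts. Of the 4 enterocyte-high libraries, the age comparison holds only fish 198 and 200. Without the enterocyte-high libraries the counts were 0 of 5 by dose, with 1.18% of genes past the threshold, and 2 of 5 by age, with 1.32%. The dose differences were then 0.85 ± 0.58 for BTG2, 0.55 ± 0.20 for BTG1, 0.77 ± 0.30 for cdkn1a, -1.49 ± 0.53 for LMNB1 and 0.96 ± 0.23 for mcl1a. With 1 fish left out, the dose differences ran from 0.81 to 1.03 for mcl1a, -1.80 to -1.47 for LMNB1 and 0.52 to 0.72 for BTG1. The age differences ran from -2.60 to -2.30 for BTG2 and -1.66 to -1.24 for cdkn1a.

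**Figure D3:**
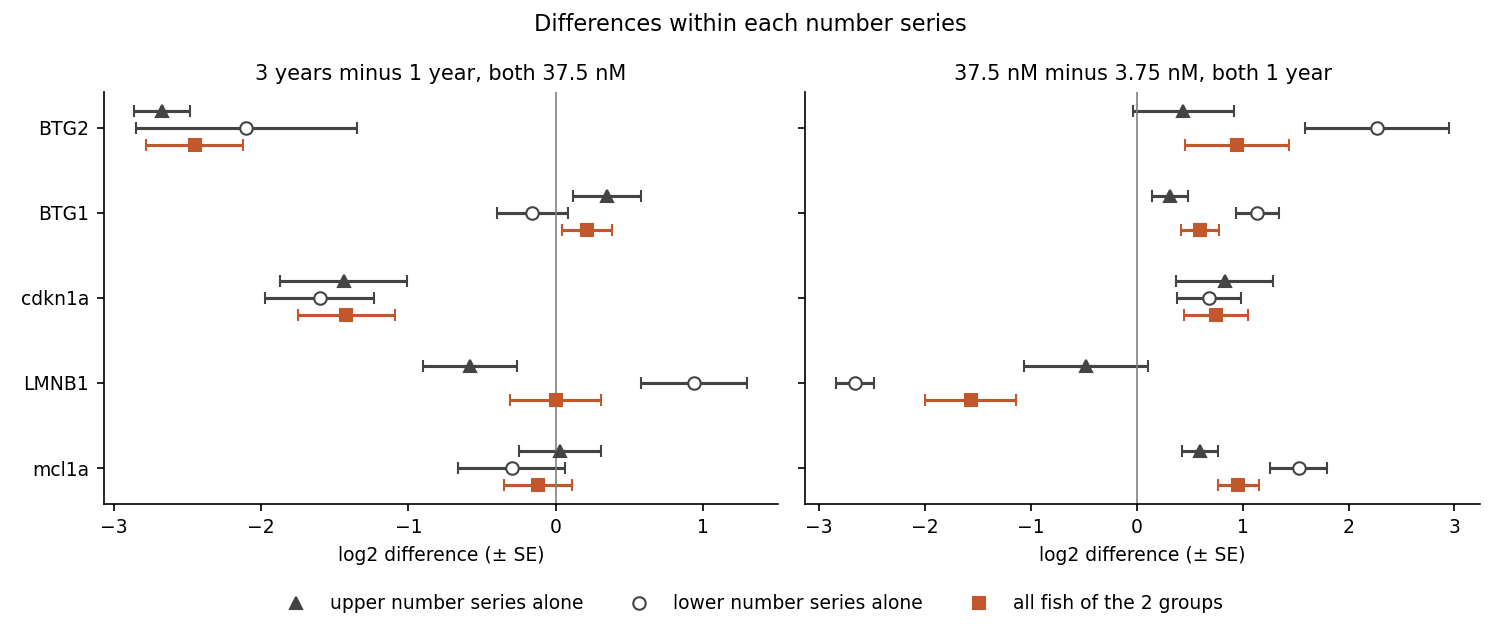
Differences on the log2 scale (x axis, ± SE) by age (left) and by dose (right) for the 5 genes, fitted within the upper series alone (triangles), within the lower series alone (open circles) and over all fish of both groups (squares). By dose 4 of the genes lie farther from 0 in the lower series than in the upper, and cdkn1a does not. Over all genes tested, 34.8% passed by dose in the lower series alone and 0% in the upper series alone.

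The next question was whether the dose difference itself depended on the number series. The genes were picked on dose and age contrasts, with earlier results of these data known. Their choice may thus not be independent of this term or of the series terms below. The interaction is the difference by dose in the upper series minus that in the lower, and 6.33% of 17217 genes tested were past the threshold. None of the 5 genes was (edgeR), although 4 had an unadjusted p under 0.05. Such a p was also found for 3744 of the 17217 genes. BTG1 had an interaction of -0.89 ± 0.26 (adjusted p = 0.0543), mcl1a of -1.0 ± 0.30 (adjusted p = 0.0559), LMNB1 of 2.1 ± 0.72 (adjusted p = 0.0925) and BTG2 of -1.88 ± 0.85 (adjusted p = 0.206), all edgeR. Each of these signs means a smaller dose difference in the upper series. cdkn1a stood apart at 0.10 ± 0.62 (adjusted p = 0.943).

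BTG1, mcl1a and LMNB1 lay close enough to the threshold for the method to decide. All 3 passed with DESeq2 (adjusted p = 0.0210, 0.0353 and 0.0245) and with limma voom (adjusted p = 0.0112, 0.0270 and 0.00133). More of all genes passed with these tools as well, 11.9% with DESeq2 and 16.3% with limma voom, against 6.33% with edgeR. With edgeR and 1 fish left out they passed in 3, 1 and 2 of 18 fits, all 3 of them without fish 189 (adjusted p = 0.0267, 0.0450 and 0.0187). The highest adjusted p were 0.173 for BTG1 without fish 166, 0.218 for mcl1a without fish 174, where the value was -0.55, and 0.153 for LMNB1 without fish 202. Without the enterocyte-high libraries the values were -0.70 ± 0.29, -0.97 ± 0.39 and 2.59 ± 0.85, none past the threshold.

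For age, the interaction with series passed for no gene at all with edgeR (0 of 18276, that is 0%, with 1808 at an unadjusted p under 0.05), for 63 genes with DESeq2 and for 2 with limma voom, none of them among the 5. LMNB1 had the largest value of the 5, at -1.51 ± 0.53 (adjusted p = 0.428), and BTG2, BTG1, mcl1a and cdkn1a had -0.57 ± 0.63, 0.52 ± 0.35, 0.34 ± 0.48 and 0.16 ± 0.63. This comparison rests on 2 lower-series fish at 3 years.

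Averaged over the 3 groups, the number series had no passing effect on the 5 genes, while 13.2% of 17282 genes tested passed, 4.49% higher and 8.66% lower (edgeR, upper minus lower, group as a covariate). Genes higher were 34.1% of those calls, and 46.2% with library size alone. BTG1 came nearest at 0.38 ± 0.15 (adjusted p = 0.0930), then cdkn1a at 0.48 ± 0.26 (adjusted p = 0.204), BTG2 at 0.53 ± 0.40 (adjusted p = 0.387), LMNB1 at -0.39 ± 0.35 (adjusted p = 0.466) and mcl1a at 0.05 ± 0.17 (adjusted p = 0.874). BTG1 alone of the 5 had an unadjusted p under 0.05 (edgeR), as did 5340 of the 17282 genes. It passed with DESeq2 (adjusted p = 0.0343), where 20.7% of all genes passed. cdkn1a passed without the enterocyte-high libraries, at 0.75 ± 0.21 (adjusted p = 0.0348, edgeR).

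Within single groups, genes past the threshold for series were found mainly in fish at 3.75 nM. There BTG1 was higher by 0.80 (adjusted p = 0.0372, edgeR) and mcl1a by 0.58 (adjusted p = 0.0300) in the upper series. Of 15842 genes tested in those fish 1885 passed, that is 11.9%. BTG1 had 318 to 504 CPM in the 5 upper-series fish and 191 to 283 CPM in the 4 lower-series fish, and mcl1a had 53.5 to 65.3 CPM and 38.7 to 48.5 CPM, with no overlap for either gene. BTG2 at 1.89 and LMNB1 at -1.30 did not pass (adjusted p = 0.108 and 0.163). In 1-year fish at 37.5 nM and in 3-year fish, 5 genes and 1 gene passed, none of them among the 5 described here. Genes at an unadjusted p under 0.05 (edgeR) numbered 4956 at 3.75 nM. They numbered 3266 in 1-year fish at 37.5 nM and 1224 in 3-year fish. In 1-year fish at 37.5 nM LMNB1 stood at 0.89 (adjusted p = 0.204, edgeR), with the sign opposite to that at 3.75 nM. The dose interaction above is the test of whether the series difference differs between the 1-year groups.

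For the number series the lists are read against the 4.49% of all genes that were higher and the 8.66% that were lower. Of 37 p53 targets and regulators, 5 rose and 2 fell in the upper series, with a median of 0.27 against 0.06 for all genes tested. bbc3, which encodes the pro-apoptotic protein PUMA, rose to 14.7 CPM in the upper series, against 3.17 CPM in the lower (2.63 ± 0.65, adjusted p = 0.0123, edgeR), and mdm2, the ubiquitin ligase that degrades p53, rose to 25.0 CPM, against 17.4 CPM (0.58 ± 0.15, adjusted p = 0.0160). Both passed in all 24 fits with a fish left out and without the enterocyte-high libraries. rps27l, SESN1 and PERP also rose, passing in 17, 11 and 10 of the 24, and the last 2 did not pass without the enterocyte-high libraries (0.83 and 0.47, adjusted p = 0.0644 and 0.148), while triap1 (-0.81 ± 0.17) and the DNA repair gene XPC (-0.52 ± 0.14) fell. bbc3 was also the only one of 23 BCL2 family genes that passed; mcl1b, at 186 CPM in the upper and 87.7 CPM in the lower series, had 1.11 ± 0.40 (adjusted p = 0.0646).

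Some markers of other cell types also differed with the number series, where 4.49% of all genes were higher and 8.66% lower. Summed stellate cell and fibroblast markers ran from 132 to 964 CPM in the upper and 98.7 to 223 CPM in the lower series, with 16 of 17 genes positive and 3 past the threshold, and endothelial markers from 184 to 357 CPM and 187 to 261 CPM, with 3 of 19 higher. Macrophage markers ran from 479 to 1700 CPM and 226 to 972 CPM (19 of 20 positive, 1 higher), T cell and NK cell markers from 6.87 to 57.9 CPM and 6.51 to 88.0 CPM (18 of 18 positive, 1 higher), and enterocyte markers from 1420 to 38200 CPM and 810 to 14200 CPM, with a median log2 difference of 2.1. The counts of 1 for macrophage and for T cell and NK cell markers lie near the share of all genes. Exocrine pancreas markers went the other way, with 22 of 22 negative, none past the threshold and a median of -0.48. Of 16 erythrocyte markers 2 were higher and 3 lower. The part of any of these markers in the series differences of any list was not tested.

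Among 35 FOXO factors and targets, 7 rose and 1 fell, with a median of 0.60. With 1 fish left out 7 to 13 passed, the 13 without fish 189. They include CITED2, a transcriptional coregulator (1.43 ± 0.26, adjusted p = 0.00200, edgeR), PDK4, which inhibits pyruvate dehydrogenase (0.75 ± 0.20), and BCL6, a transcriptional repressor (2.69 ± 0.75), and foxo3a itself was the one that fell (-1.31 ± 0.37). Without the enterocyte-high libraries foxo3a (-1.19), FBXO32 (1.48) and PDK2 (1.4) did not pass (adjusted p = 0.0943, 0.0681 and 0.0654). Of 47 immediate early genes 6 rose and none fell, with ZFP36L1, which destabilises AU-rich messenger RNA, at 0.75 ± 0.18 (adjusted p = 0.0109) and the nuclear receptor NR4A3 at 1.32 ± 0.34 (adjusted p = 0.0148). Of 23 glucocorticoid receptor genes and targets 3 rose and 1 fell: the clock gene PER1 rose by 1.97 ± 0.35 (adjusted p = 0.00199) and nfil3-5, a bZIP repressor, fell by 1.39 ± 0.32 (adjusted p = 0.00894). These lists share members such as PDK4.

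Of the 23 caspases, apoptosis inhibitors and genes that act with them, 1 was higher and 5 were lower in the upper series. The other 17 were not past the threshold, and the median was -0.02. casp8, the initiator caspase of death receptors, rose by 0.31 ± 0.08 (adjusted p = 0.0155, edgeR) and ENDOG fell by 0.82 ± 0.17 (adjusted p = 0.00457). Of 23 lamina and envelope genes 1 rose and 4 fell, among them FNTA (-0.59 ± 0.11, adjusted p = 0.00225) and ZMPSTE24 (-0.46 ± 0.12, adjusted p = 0.0152), the protease that matures lamin A. Of 25 CDK inhibitors, cyclins and pocket proteins, CDKN1B (ENSDARG00000029018) rose by 0.48 ± 0.15, and CDK4, the kinase that drives G1, fell by 0.45 ± 0.12, as did E2F4 by 0.43 ± 0.13, the last passing in 12 of 24 fits with a fish left out. Of 26 BTG/TOB and CCR4-NOT genes, tob1b rose (0.88 ± 0.29, adjusted p = 0.0497, passing in 9 of 24 such fits) and PRMT1, CNOT2 and CNOT9 fell, passing in 22, 15 and 14. Without the enterocyte-high libraries tob1b (1.0), PRMT1 (-0.56), CNOT2 (-0.18) and CNOT9 (-0.28) did not pass (adjusted p from 0.0577 to 0.142, edgeR). Nor did E2F4 (-0.42, adjusted p = 0.0754). Of all genes 7.09% passed in that fit. In S phase and mitosis tuba8l4 alone of 43 passed, falling by 0.78 ± 0.18.

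**Figure D4:**
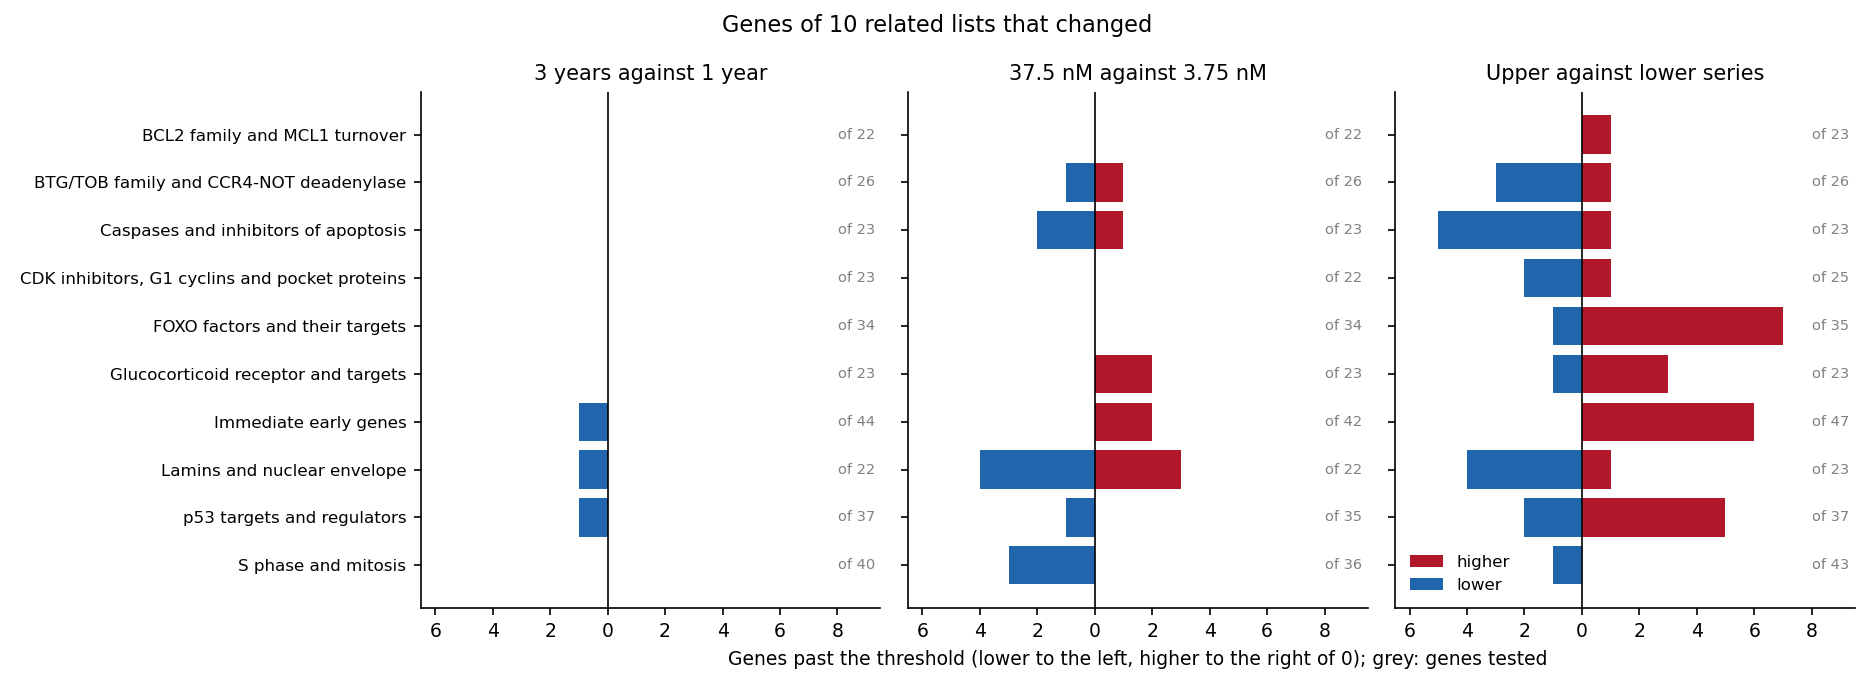
Number of genes of 10 related lists past the threshold of an adjusted p of 0.05 (x axis, genes; higher to the right, lower to the left of 0), by age, by dose and by number series, with the number tested in grey. In the upper number series 7 FOXO genes, 6 immediate early genes and 5 p53 genes were higher, and by age 1 gene passed in each of 3 lists. Of all genes 4.49% were higher in the upper series, and 1.72% passed by age.

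By dose, 2 of 42 immediate early genes rose: SIK1, a salt-inducible kinase, to 56.2 CPM at 37.5 nM, against 18.8 CPM at 3.75 nM (1.59 ± 0.38, adjusted p = 0.0138, edgeR), and MYC to 59 CPM, against 11.4 CPM (2.4 ± 0.68, adjusted p = 0.0311), the second passing in 12 of 18 fits with a fish left out. Of 23 glucocorticoid receptor genes and targets, the receptor NR3C1 rose by 0.66 ± 0.17 (adjusted p = 0.0198) and nfil3-5 by 2.08 ± 0.46 (adjusted p = 0.0104). Without the enterocyte-high libraries the differences were 1.66 for SIK1, 2.61 for MYC, 0.60 for NR3C1 and 2.09 for nfil3-5, none past the threshold (adjusted p from 0.0582 to 0.0841). In that fit 1.18% of all genes passed by dose, against 11.4% with all fish. No FOXO gene passed by dose with all fish, of 34. Beside these counts, 3.19% of all genes were higher by dose and 8.19% lower, and 0.897% and 0.823% by age. By age, JUND, a component of AP-1, fell by 0.94 ± 0.18 (adjusted p = 0.0146, edgeR) as 1 of 44 immediate early genes, the list had a median of -0.43, and 37 of its 44 genes had a negative sign. Glucocorticoid receptor genes and targets had a median of -0.43 by age as well, with 20 of 23 negative and none past the threshold; sgk1, a kinase induced by cortisol, had 81.2 CPM in 3-year fish and 217 CPM in 1-year fish (-1.44 ± 0.36, adjusted p = 0.0535).

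The 5 genes were then compared with each other over the 24 fish, after the mean of each group within each series had been subtracted from log2 CPM. None of the 10 pairs passed a permutation test of Pearson's r with Benjamini-Hochberg adjustment, and none had an unadjusted p under 0.05. BTG1 and mcl1a had the largest r at 0.48 (Spearman's rho 0.46, permutation p = 0.0992 and 0.0589, adjusted p = 0.209 and 0.275), and r was 0.47 without the 2 fish farthest from the median of BTG1. cdkn1a and LMNB1 had r = -0.47 (rho -0.44, adjusted permutation p = 0.209 and 0.275), which was -0.38 without the farthest fish. BTG2 and LMNB1 had r = -0.43 (rho -0.35, adjusted permutation p = 0.209 and 0.275), and -0.49 without the farthest fish. Those farthest fish were picked on the level of the first gene of each pair, before any mean was subtracted. With 1 fish left out, r ran from 0.34 to 0.56 for BTG1 and mcl1a and from -0.6 to -0.29 for cdkn1a and LMNB1. For BTG2 and LMNB1 it ran from -0.53 to -0.17, the last without fish 189. BTG2 and BTG1 stood near 0, with r = -0.05 and rho = -0.02.

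The genes whose levels followed each of the 5 most closely in the same deviations were ranked among 9632 genes with a mean of at least 4 CPM (9633 for cdkn1a), as a description with no test. For BTG2 they were nr1d2a, a nuclear receptor of the circadian clock (r = 0.78), HSD11B2, which inactivates cortisol (0.77), and FKBP5, a co-chaperone of the glucocorticoid receptor (0.77). For BTG1 they included the Mediator subunits MED11 (0.86) and MED17 (0.84). For cdkn1a they were ACSBG1, an acyl-CoA synthetase (0.89), SERPIND1, a plasma inhibitor of thrombin made in liver (0.85), and AGXT2, a mitochondrial aminotransferase (0.82). For LMNB1 they were DNAJC21, a co-chaperone of ribosome assembly (0.93), RUVBL1, an ATPase of chromatin complexes (0.91), and CBX3, a heterochromatin protein (0.91). For mcl1a they were ENSDARG00000098222 with no symbol (0.74), the interleukin receptor il4r.1 (0.70) and cd40, a receptor of the TNF family (0.69). The points of each correlation share the same 24 libraries.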

How the data were processed

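Deposited raw counts per gene were used; per the submitters' processing notes the authors used CASAVA 1.8.2, STAR 2.4.1d, featureCounts 1.4.6-p4 and GRCz10, with roles and the strand setting not given in the sources used here, so reads of overlapping antisense genes cannot be told apart. Per the labels' protocols, the TruSeq RNA v2 kit was used on total RNA of liver. The 2 tables were joined on identifier. Files of values named RPKM were not used. Each comparison was fitted on the counts with edgeR 4.0.16 (TMM factors, filterByExpr, two-sided quasi-likelihood F test, Benjamini-Hochberg, adjusted p under 0.05) in R 4.3.3; SE is the absolute log2 difference divided by the square root of F. Pair correlations used log2 CPM (prior count 2) and 100000 permutations of fish within group and series. Members, lists and markers were chosen with earlier results of these data known. Members, the paralogs, the 2 lowest p per list, and genes past the threshold where they were few are named. Scripts were tested on simulated data. Alternatives included DESeq2 1.42.0 and limma voom 3.58.1; leaving out the enterocyte-high libraries was added after seeing the data. No sequence is printed and promoter motifs were not analysed here. One gene that followed BTG1 is not reported here.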

Additional observations from a re-analysis of the deposited data

Results flagged for a closer look

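Each of the 5 genes was checked in each of the 3 groups for a fish that stood apart from the rest. By Dixon's test at the 95% level 4 of these 15 checks found one, each the highest of its group. The chance rate of 1 in 20 holds for normally distributed values. The test was run on CPM without a log, so the rate here is not known. BTG2 stood at 30.5 CPM in fish 193, a 1-year fish at 3.75 nM, against 12.9 CPM in the next highest of its group. LMNB1 stood at 18 CPM in fish 202, a 1-year fish at 37.5 nM, against 10.9 CPM in the next, and at 14.6 CPM in 3-year fish 181, against 7.59 CPM in the next. mcl1a stood at 177 CPM in fish 174, a 1-year fish at 37.5 nM, against 110 CPM in the next.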

How the results depend on the processing

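No paired analysis was possible because every fish carries a number of its own. By dose, edgeR called 1760 genes with all libraries, 1131 without the filter on low counts, 2706 with DESeq2, 3985 with limma voom, 5291 in the lower series alone and 0 in the upper series alone (1218 at an unadjusted p under 0.05). Leaving out 1 fish gave 909 to 2518, and the counts without fish 163, 165, 166 or 167 were 954, 1104, 917 and 909. By age it called 278, with 1196 by DESeq2, 853 by limma voom, 540 once fitted with number series as a term, 13 in the lower and 30 in the upper series, and 115 to 559 with 1 fish left out, the ends without fish 196 and 195. For the number series it called 2273, with 3579 by DESeq2, 1285 with library size alone, 5 within 1-year fish at 37.5 nM, 1 within 3-year fish, and 1450 to 2943 with 1 fish left out. For dose by series it called 1089, with 680 without the filter, 2055 by DESeq2, 2802 by limma voom, and 516 to 2048 with 1 fish left out, the ends without fish 167 and 189. For age by series it called 0, with 63 by DESeq2, 2 by limma voom and 0 to 2 with 1 fish left out. Without the 4 enterocyte-high libraries, an alternative added after seeing the data, the counts were 181 by dose, 1204 for series and 408 for dose by series. Genes higher made up 28% of the calls by dose, 19.2% with library size alone, 37.8% with upper-quartile factors and 47.6% with limma voom. They made up 52.2% of the calls by age and 65.8% with upper-quartile factors, 34.1% of the series calls and 46.2% with library size alone, and 27.8% of the dose by series calls and 37.8% with RLE factors. Library size alone moved the median of all genes for age by series to -0.2.

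The dose differences of the 5 genes moved by more than the log2 SD between 1-year fish at 37.5 nM for BTG2 (1.76 with limma voom, 2.27 in the lower series), BTG1 (1.14 in the lower and 0.31 in the upper series), LMNB1 (-2.66 and -0.48) and mcl1a (1.53 in the lower series). By age they did so for BTG1 (-0.16 in the lower series; 0.002 to 0.29 with 1 fish left out) and LMNB1 (0.94 in the lower series). For the series term BTG1 passed with a mean of at least 4 CPM (0.43), with DESeq2 (0.40) and within fish at 3.75 nM (0.80), mcl1a within those fish (0.58) and cdkn1a without the enterocyte-high libraries (0.75). Its sign turned, without passing, for BTG2 within 3-year fish (-0.54), BTG1 and LMNB1 within 1-year fish at 37.5 nM (-0.01 and 0.89), and mcl1a with limma voom (-0.02), within 1-year fish at 37.5 nM (-0.34), within 3-year fish (-0.04) and with 1 fish left out (-0.003 to 0.18). For dose by series BTG1 passed with upper-quartile factors (-0.90), library size alone (-0.79), a mean of at least 4 CPM (-0.86), DESeq2 (-0.81) and limma voom (-0.98), LMNB1 with DESeq2 (2.19) and limma voom (2.96), and mcl1a with DESeq2 (-0.92) and limma voom (-1.12). With 1 fish left out these ran from -0.96 to -0.65 for BTG1, 1.79 to 2.59 for LMNB1 and -1.08 to -0.55 for mcl1a. cdkn1a changed sign with limma voom for dose by series (-0.13) and age by series (-0.02), without the enterocyte-high libraries for age by series (-0.26), and with 1 fish left out (-0.20 to 0.43 and -0.19 to 0.62). cdkn1a was not tested under the filter of 4 CPM. The cause of these changes was not tested.

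With group means alone subtracted, 2 pairs passed, BTG1 with LMNB1 (r = -0.59, adjusted permutation p = 0.0357) and BTG1 with mcl1a (0.54, adjusted permutation p = 0.0357). Under that setting BTG2 with BTG1 (0.26), BTG2 with mcl1a (0.18) and LMNB1 with mcl1a (-0.18) changed sign, as BTG2 with mcl1a did by Spearman's rho (0.03) and without the farthest fish (0.07), and BTG2 with BTG1 without the farthest fish (0.04). With 1 fish left out, BTG2 with BTG1 ran from -0.22 to 0.11, BTG2 with cdkn1a from -0.04 to 0.20 and BTG2 with mcl1a from -0.09 to 0.08. Among genes of the lists, PRMT1 (0.09) and BIRC6 (0.02) changed sign for series within 1-year fish at 37.5 nM, and CNOT9 (0.06) and foxo3a (0.81) within 3-year fish. cdkn1a rests on 22 to 223 reads per library, and how far this limits its precision was not tested. Its SE by dose was 0.30, against 0.49 for BTG2, 0.43 for LMNB1, 0.19 for mcl1a and 0.18 for BTG1. By age its SE was 0.33, against 0.33 for BTG2, 0.31 for LMNB1, 0.23 for mcl1a and 0.17 for BTG1.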
